A study of Mus musculus with 4 samples.

Results

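The COP9 signalosome is a multi-subunit enzyme of the cytoplasm and nucleus, and the transcripts of its 10 subunit genes, *Gps1*, *Cops2* to *Cops6*, *Cops7a*, *Cops7b*, *Cops8* and *Cops9*, were followed here in mouse oocytes. The genes were taken by name from a table of 21957 genes, by a rule that uses no measured value, though with earlier results of these data known, and all 10 were found, each under a single Ensembl identifier. In all, 4 conditions had been profiled by RNA-seq, with 1 library for each, made from a pool of 100 oocytes of hybrid B6D2F1 (C57BL/6 x DBA) females between 6 and 8 weeks old. All females had received 5 IU of PMSG 48 h before collection, and the oocytes were stripped of cumulus cells with hyaluronidase and kept in M16 medium. GV oocytes were untreated and had not been matured. MII oocytes, one label of which calls them embryos, were untreated, were cultured for 12 h and were kept only if they had extruded a polar body. TubA-10 and TubA-20 oocytes were cultured for 12 h with 10 or 20 μM of tubastatin A (TubA), a small molecule made to inhibit the deacetylase HDAC6, and no such selection is described for them. TubA was dissolved in DMSO, and no solvent control is described. The paper reports that oocytes given the higher dose of TubA were arrested before the MII stage. MII and TubA-treated oocytes thus differ in selection as well as in drug, and at the higher dose in meiotic stage too. The stage of TubA-10 oocytes is not given separately, so it may differ as well. The share of each in a difference cannot be told apart. One label of treatment contradicts these doses, with 20 μM on the TubA-10 sample and 11 μM on the TubA-20 sample, and the titles were followed.

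As background, the signalosome removes the ubiquitin-like protein NEDD8 from cullins, the scaffolds of the cullin-RING ubiquitin ligases. A cullin that carries NEDD8 is active, and the cycle of its attachment and removal lets a ligase exchange the adaptors that bring in substrates. Most subunits carry a PCI domain, by which they assemble into a horseshoe, while *Cops5* and *Cops6* encode a pair of MPN proteins of which only COPS5 is a metalloprotease. In oocytes, cullin-RING ligases act beside the anaphase-promoting complex in the protein turnover of meiosis.

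With 1 library per condition no difference can be set against the spread between replicates, so no value has an error, and differences are descriptions of these libraries without p-values. Values are FPKM, scaled to the length of the transcript and to the size of the library, so they can be set side by side between genes. They are shares of a library of polyadenylated RNA, and fewer molecules per oocyte, a shorter poly(A) tail and a rise of other transcripts cannot be told apart. Changes are log2 ratios of FPKM + 1. Relative to GV, the 9193 genes that reached 1 FPKM throughout had a median log2 change of 0.13 (MII), 0.14 (TubA-10) and 0.19 (TubA-20). Each change from GV is lower by that much relative to the median gene. The scaling that sets the median change to 0 took its factor from FPKM without the added 1, so its shifts differ somewhat from these. Judged from the step between the lowest FPKM, TubA-20 had 0.901 times, MII 1.61 times and TubA-10 1.71 times the depth of GV, and the last pair of estimates is blunt. The totals of reads that the paper gives, however, put TubA-20 above GV and TubA-10 close to MII. All 10 oocyte markers examined, *Zp1* to *Zp3* and *Gdf9* among them, lay at 197 FPKM or above in GV and at 238 or above in the other libraries. The 10 markers of cumulus and granulosa cells added up to 15.4 FPKM in GV, 8.17 in TubA-10, 10.5 in MII and 13.7 in TubA-20. *Foxl2* was at 0 in each, but *Cyp19a1* was at 6.14 FPKM in GV, 7.42 in TubA-10, 8.60 in MII and 10.3 in TubA-20. *Inha* was at 7.50 FPKM in GV, 0.31 in TubA-10, 0.31 in MII and 0.24 in TubA-20. In the other direction, *Ptx3* and *Tnfaip6*, named after their values were seen, went from 0 FPKM in GV to 1.19 and 1.57 in TubA-20. The oocyte list summed to between 20414 FPKM (GV) and 30591 (TubA-20), but its members moved apart from GV to TubA-20, with 3 more than 2-fold lower, *Zp1* (−1.08), *Zp2* (−1.36) and *Zp3* (−1.33), and 2 more than 2-fold higher, *Gdf9* (1.11) and *Oosp1* (1.20). The part of these movements in the values of the subunit genes was not tested.

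The subunit genes differed widely in level, and their order was not the same in the libraries. *Cops9*, which encodes the smallest subunit, was the highest of the 10 in every library, and *Cops7b* was the lowest. In GV, the level per length was 421 FPKM for *Cops9*, 228 for *Cops4*, 223 for *Cops6*, 151 for *Cops3* and 101 for *Cops8*. Next came *Cops5* at 83.4 FPKM, *Cops2* at 69.3, *Cops7a* at 63.9, *Gps1* at 60.7 and *Cops7b* at 3.81. Neighbors such as *Cops4* and *Cops6*, or *Cops7a* and *Gps1*, lay close together in GV, and without replicates their order is not established. Leaving out *Cops9* and *Cops7b*, the highest subunit exceeded the lowest by 3.76 times in GV, 3.68 times in TubA-10, 2.76 times in MII and 9.84 times in TubA-20. The transcript levels were thus least even in TubA-20. The transcript of *Cops9* has only 438 bases in the annotation, a length at which FPKM depends most on how fragment size is allowed for, so its level against the other genes is the least certain.

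**Figure D1:**
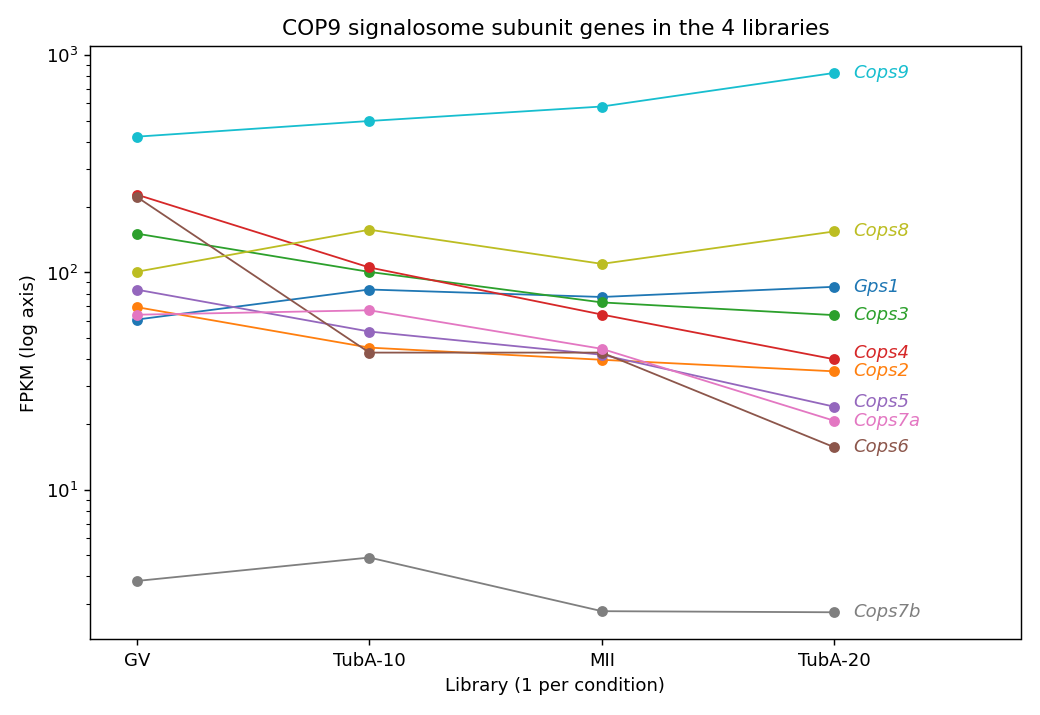
FPKM of the 10 genes (log axis) in the GV, TubA-10, MII and TubA-20 libraries, 1 library each, with lines that join the points of a gene and stand for no course in time. *Cops9*, *Cops8* and *Gps1* end above their GV level in TubA-20, and *Cops6* has the steepest fall, from 223 to 15.7 FPKM.

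From GV to MII, the maturation without drug, 3 of the 10 genes were more than 2-fold lower, *Cops6*, *Cops4* and *Cops3*, and 0 were more than 2-fold higher. Among all genes 8.34% were lower and 3.05% higher by as much, and among the 7897 genes that reached 5 FPKM in any library, 9 of the subunit genes among them, 20.2% and 8.10%. The split over all genes depends on the scaling, at 9.55% and 1.52% with the median change set to 0 and 6.68% and 6.95% with equal *Gapdh*. *Cops6* had the largest change, from 223 to 42.8 FPKM, a log2 change of −2.35, and only 1.79% of the genes with at least 5 FPKM had a lower one. *Cops4* went from 228 to 64.0 FPKM (−1.82). *Cops3*, at −1.04, was so close to the limit that it fell short of 2-fold with equal FPKM sums (−0.91), equal upper quartiles (−0.98) or equal *Gapdh* (−0.81). The median log2 change of the 10 genes was −0.65, against 0.13 for genes with at least 5 FPKM, and 7 were lower than in GV. *Gps1* was higher by 0.34, *Cops9* by 0.46 and *Cops8* by 0.12, the last of which turned to −0.02 with the median change of all genes set to 0.

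TubA-treated oocytes differ from GV in 12 h of culture as well as in drug. The share of each in a change from GV cannot be told apart, here or in the lists below. TubA-20 against GV gave 5 of the 10 genes below the 2-fold limit, *Cops6*, *Cops4*, *Cops5*, *Cops7a* and *Cops3*, and again 0 were higher by as much. The shares were 11.7% lower and 7.61% higher over all genes, and 26.4% and 19.9% over those with at least 5 FPKM, and with the median change set to 0 they were 13.3% and 3.94% over all genes. The median log2 change of the 10 genes was −1.10, against 0.22 for genes with at least 5 FPKM, the middle 50% of which spanned −1.10 to 0.90. In TubA-10, 2 genes were more than 2-fold lower than in GV, *Cops6* and *Cops4*, and 0 higher, against 5.60% and 0.742% of all genes and 13.7% and 1.79% of those with at least 5 FPKM. With equal *Gapdh* 3.92% of all genes were lower and 3.42% higher. The median of the 10 genes in TubA-10 was −0.26, and it came to 0.01 with equal *Gapdh*, under which *Cops4* (−0.84) no longer passed 2-fold.

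**Figure D2:**
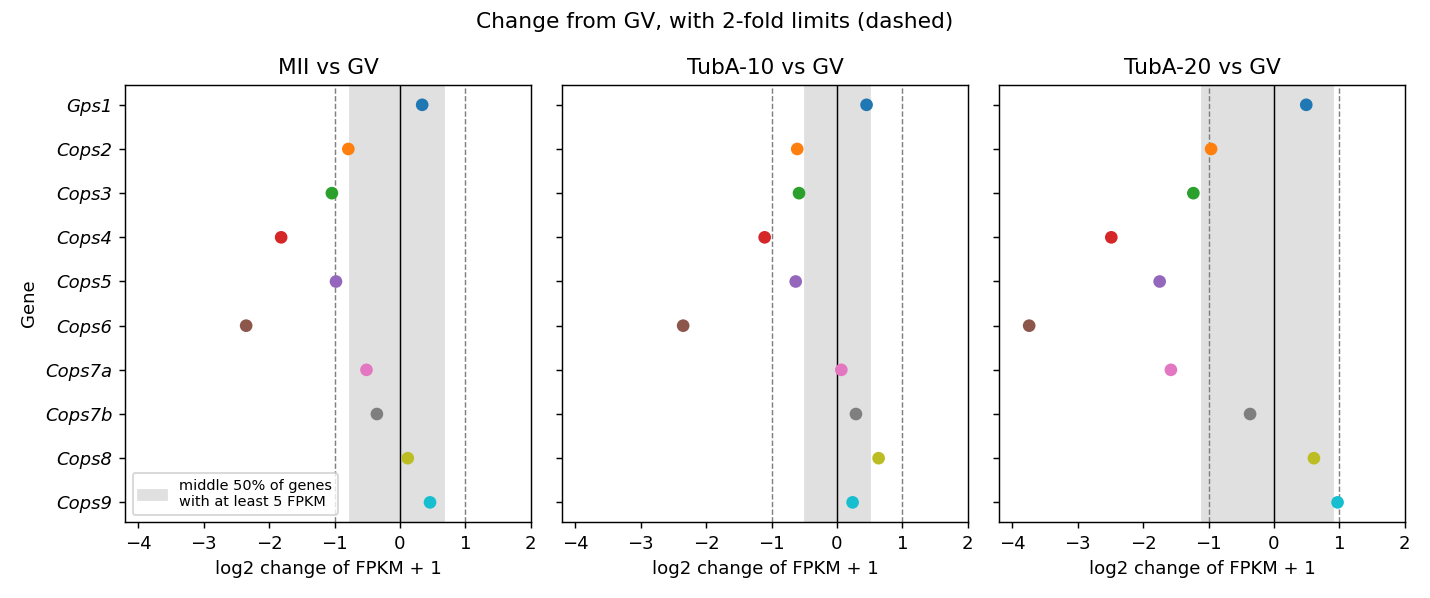
The log2 change of FPKM + 1 from GV is plotted for the 10 genes in MII, TubA-10 and TubA-20, with dashed lines at 2-fold and the middle 50% of the genes with at least 5 FPKM in gray. *Cops6* and *Cops4* lie left of the gray band and of the 2-fold line in all 3 panels, and no gene lies beyond 2-fold on the right.

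*Cops5* and *Cops6* form the catalytic pair of MPN proteins, COPS5 carrying the metalloprotease center and COPS6 being its inactive partner. *Cops6* (Ensembl identifier ENSMUSG00000019494.14, GRCm38, chr5:138161071-138164646, forward strand) was at 223 FPKM in GV, 42.8 in TubA-10, 42.8 in MII and 15.7 in TubA-20. Its GV value was 14.2 times that of TubA-20, and the log2 change of −3.74 lay at the end of the distribution, with 0.659% of the genes with at least 5 FPKM lower. MII and TubA-10 did not differ to 3 digits, and the difference between them changes sign under equal *Gapdh* (0.04). *Cops5* (ENSMUSG00000025917.9, chr1:10024601-10038168, reverse strand) was at 83.4 FPKM in GV, 53.5 in TubA-10, 41.8 in MII and 24.1 in TubA-20, so it was lower in each cultured library but by less than *Cops6*. Its log2 change from GV was −0.98 in MII and −1.75 in TubA-20, and the former passed 2-fold (−1.12) once the median change was set to 0. The ratio of *Cops5* to *Cops6* was 0.375 in GV, 1.25 in TubA-10, 0.977 in MII and 1.54 in TubA-20. *Cops6* was thus the higher of both in GV and *Cops5* in TubA-20, while in MII they lay so close together that their order is not established.

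Among the PCI subunits, *Cops4*, whose product takes part in sensing a bound cullin ligase, had the largest change from GV in each cultured library, while *Cops7a* changed more between TubA-20 and MII and between the doses. *Cops4* (ENSMUSG00000035297.14, chr5:100518309-100547803, forward strand) was at 228 FPKM in GV, 105 in TubA-10, 64.0 in MII and 39.9 in TubA-20. Relative to GV, the log2 change was −1.11 for TubA-10, −1.82 for MII and −2.49 for TubA-20, and the level in TubA-10 lay above that in MII by 0.71. *Cops2* (ENSMUSG00000027206.13, chr2:125830304-125859139, reverse strand), whose product reaches out to the cullin, was at 69.3 FPKM in GV, 45.1 in TubA-10, 39.7 in MII and 35.1 in TubA-20. Its change of −0.96 from GV to TubA-20 was just short of 2-fold and passed it at −1.18 when the median change was 0 and at −1.02 under equal upper quartiles. *Cops3* (ENSMUSG00000019373.11, chr11:59817795-59839838, reverse strand), another PCI subunit, was at 151 FPKM in GV, 101 in TubA-10, 72.8 in MII and 63.6 in TubA-20. *Cops2*, *Cops3*, *Cops4* and *Cops5* shared 1 order of the libraries, GV above TubA-10 above MII above TubA-20. The paper calls *Cops3* and *Cops5* lower in TubA-treated oocytes than in the control, and writes of a relative rise of these transcripts from GV to MII. It reports that RT-qPCR of separate oocytes, *Cops3* and *Cops4* included, matched its RNA-seq. Here *Cops3* and *Cops5* changed by −1.04 and −0.98 from GV to MII. Against MII they changed by 0.46 and 0.35 in TubA-10 and by −0.19 and −0.77 in TubA-20.

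*Gps1*, which encodes the first subunit of the horseshoe, and *Cops8*, a small PCI subunit, went the other way. *Gps1* (ENSMUSG00000025156.17, chr11:120784272-120789102, forward strand) was at 60.7 FPKM in GV, 83.5 in TubA-10, 77.1 in MII and 85.9 in TubA-20. All 3 cultured libraries lay above GV, with log2 changes of 0.45 for TubA-10, 0.34 for MII and 0.49 for TubA-20. Of the genes with at least 5 FPKM, 70.8%, 58.4% and 58.0% had a lower change in the same order. Between TubA-20 and TubA-10 the change of *Gps1* was 0.04 and turned negative under all 4 scalings, down to −0.15, and between TubA-20 and MII it was 0.15 and turned to −0.0025 with equal *Gapdh*. The *Gps1* values are uncertain, because the annotated processed pseudogene *Gm9816* matches its transcript over 1414 bases at 99.8% identity and could share reads with it. *Cops8* (ENSMUSG00000034432.11, chr1:90602981-90613341, forward strand) was at 101 FPKM in GV, 157 in TubA-10, 110 in MII and 154 in TubA-20. Both TubA libraries lay above both controls, and the log2 change of TubA-20 from MII was 0.49, above that of 89.5% of the genes with at least 5 FPKM. The changes of *Cops8* from GV were above those of 84.6% of these genes in TubA-10, 49.8% in MII and 62.2% in TubA-20.

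*Cops9* encodes a short subunit that is not needed for the assembly of the complex. *Cops9* (ENSMUSG00000073616.10, chr1:92637145-92641985, reverse strand) was at 421 FPKM in GV, 498 in TubA-10, 580 in MII and 828 in TubA-20. It was the highest of the 10 genes in its change from GV to TubA-20, at 0.97, which passed 2-fold only with equal *Gapdh* (1.04). It ranked 288th among all genes in GV and 105th in TubA-20, while *Cops6* went from 574th to 4255th. *Cops9* made up 421 of the 1405 FPKM that the 10 genes summed to in GV, 498 of 1158 in TubA-10, 580 of 1075 in MII and 828 of 1271 in TubA-20. *Cops6* held 15.8%, 3.70%, 3.98% and 1.24% of these sums in the same order. Such shares do not depend on how the libraries are scaled. Without *Cops9*, the summed level of the other 9 genes was 984 FPKM in GV, 660 in TubA-10, 495 in MII and 442 in TubA-20, and *Cops8* took 10.2%, 23.8%, 22.1% and 34.9% of it.

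**Figure D3:**
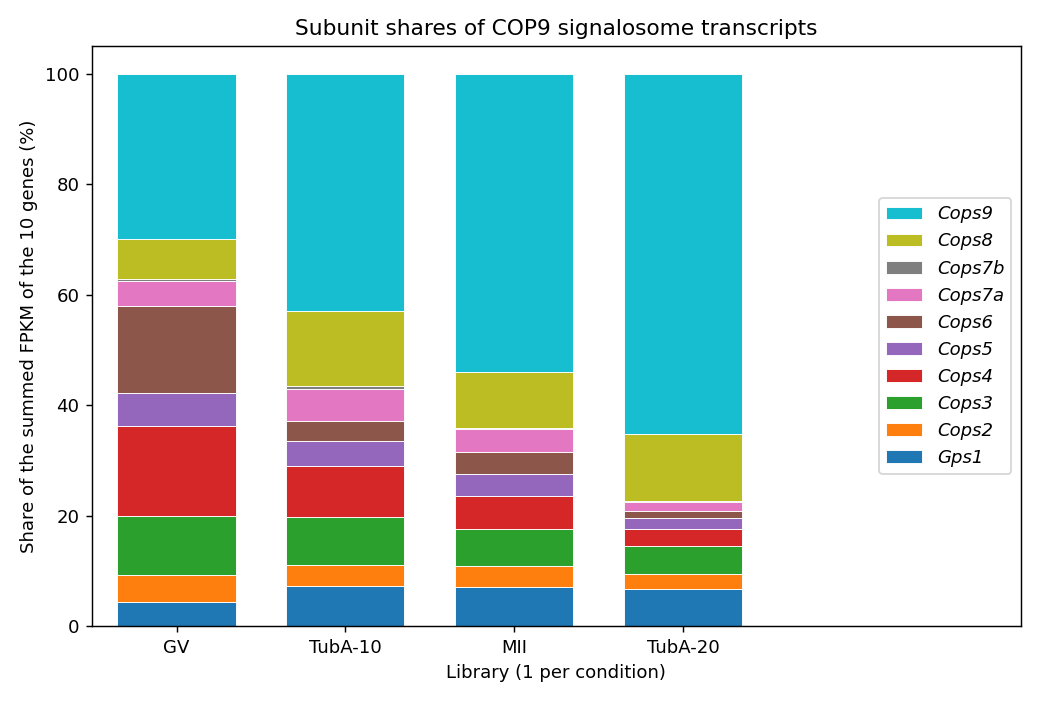
Each bar splits the summed FPKM of the 10 genes in a library into the shares of the genes, in percent. The *Cops9* share is widest in TubA-20, at 65.2%, and those of *Cops6* and *Cops4* are narrowest in TubA-20, at 1.24% and 3.14%.

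*Cops7a* and *Cops7b* are paralogs, and a signalosome holds the product of one or the other. *Cops7a* (ENSMUSG00000030127.15, chr6:124958413-124965538, reverse strand) was at 63.9 FPKM in GV, 67.0 in TubA-10, 44.5 in MII and 20.8 in TubA-20. *Cops7b* (ENSMUSG00000026240.12, chr1:86582904-86609375, forward strand) was at 3.81 FPKM in GV, 4.88 in TubA-10, 2.77 in MII and 2.73 in TubA-20, below 5 FPKM throughout. *Cops7a* was the main form in each library, at 16.8 times *Cops7b* in GV, 13.7 times in TubA-10, 16.1 times in MII and 7.60 times in TubA-20. The lower ratio in TubA-20 came with the level of *Cops7a*, which changed from MII to TubA-20 by −1.06, while *Cops7b* changed by −0.01. From GV to TubA-10 the change of *Cops7a* was 0.07 and turned to −0.09 with the median change set to 0.

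MII oocytes shared the time in culture with the TubA-treated ones, but not the selection or, at the higher dose and possibly at the lower one, the meiotic stage. Against MII, 2 of the 10 genes lay below the 2-fold limit in TubA-20, *Cops6* (−1.39) and *Cops7a* (−1.06), and 0 were higher. Over all genes the shares were 2.44% and 0.328%, and over those with at least 5 FPKM they were 6.37% and 0.545%. In TubA-10, 0 genes lay more than 2-fold from MII on either side, against 0.128% lower and 0.515% higher among all genes, and the changes ran from −0.22 for *Cops9* to 0.71 for *Cops4* with a median of 0.40. The same median was −0.18 for TubA-20. Between the doses, 4 of the 10 genes lay below the 2-fold limit in TubA-20 and 0 above it, against 5.52% and 0.660% of all genes and 14.4% and 1.37% of those with at least 5 FPKM. They were *Cops7a* (−1.64), *Cops6* (−1.39), *Cops4* (−1.38) and *Cops5* (−1.12), and *Cops9* was higher by 0.73.

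TubA-20 was the lowest of the 4 libraries for 7 of the 10 genes, all but *Gps1*, *Cops8* and *Cops9*, and this held under all 4 scalings. One of the 7, *Cops7b*, differed from MII by only −0.01, and a minimum of 5 FPKM, which drops it, left 6. Of the 10898 genes that reached 1 FPKM in any library, 36.5% had their lowest value in TubA-20. The full order shared by *Cops2*, *Cops3*, *Cops4* and *Cops5* was found for 22.6% of those genes, and GV highest with TubA-20 lowest, the case of 5 subunit genes, for 28.4%. TubA-20 was the highest library for 2 subunit genes, *Gps1* and *Cops9*, against 37.5% of those genes, and for *Cops9* alone under each of the 4 scalings.

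The 3′ ends of the transcripts were examined because maturing oocytes lengthen or shorten the poly(A) tails of stored mRNAs, by way of the polyadenylation signal and of U-rich cytoplasmic polyadenylation elements, and because the libraries were selected by poly(A). The 3′ UTR of the principal transcript was searched, on the sense strand alone and with overlaps allowed, for the elements TTTTAT or TTTTAAT and for the signal AATAAA or its variant ATTAAA. The 10 UTRs had from 221 bases (*Cops9*) to 1284 (*Cops7b*), with a median of 484.5, against 834 for the 20592 protein-coding genes with a 3′ UTR. TTTTAT was found in 1 of the 10 genes, *Cops8*, which held 3 copies, against 49.1% of all genes, and TTTTAAT in 3, *Cops4*, *Cops6* and *Cops7b*, against 26.6%. AATAAA or ATTAAA lay within the last 50 bases of 9 of the 10, all but *Cops7b*, and of 74.3% of all genes. Among those with at least 5 FPKM in any library, the shares were 54.1% for TTTTAT, 29.4% for TTTTAAT and 78.9% for the signal. Shorter UTRs hold fewer matches, and a match is a description of the letters only. The windows below, of 30 bases each and on the sense strand of the GENCODE M21 transcripts (GRCm38), are shown for the genes with the largest differences in both directions. Capitals mark the signal or, in the upper line for *Cops8*, 2 of its 3 copies of TTTTAT.
Cops6 (chr5:138164613-138164642): ctttattggcagAATAAAaaagtgcagcat
Cops4 (chr5:100547763-100547792): agcggtgagccaAATAAAggcagtacttgg
Cops9 (chr1:92637162-92637191): cttgtttaagttAATAAAgaacactgtaac
Cops8 (chr1:90613222-90613251): tcctTTTTATtttttgggaaTTTTATacac
Cops8 (chr1:90613303-90613332): ccctagaatttaATTAAAaagaaactgtct

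*Cops6* and *Cops4*, with the lowest values in TubA-20 relative to GV, and *Cops9*, with the highest, all carried AATAAA near the end, and *Cops8* carried the variant ATTAAA with TTTTAT upstream of it. *Gps1* carried ATTAAA too, with no TTTTAT. *Cops9*, *Cops8* and *Gps1*, higher in TubA-20 than in GV, thus did not all share TTTTAT or the form of the signal, though *Cops8* and *Gps1* both had ATTAAA. In *Cops4* the single TTTTAAT lay downstream of the signal, within the last 10 bases, and in *Cops6* it lay outside the last 100 bases. Annotated genes on the opposite strand overlapped *Cops2* (*Galk2*), *Cops3* (*Nt5m* and the antisense gene *Gm16062*, which matches it over 210 bases), *Cops5* (*Cspp1*), *Cops6* (*Mcm7*) and *Cops7a* (the snRNA gene *Gm23851*), and the values had been computed with a strand-specific setting.

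The other genes of the NEDD8 pathway, which encode NEDD8, the enzymes that attach it and factors that remove or bind it, moved in both directions. All 12 genes of this list were found, and from GV to TubA-20 1 was more than 2-fold lower and 2 higher, with a median log2 change of 0.36. These counts are near the background of that comparison, 11.7% lower and 7.61% higher over all genes and 26.4% and 19.9% over those with at least 5 FPKM. *Nedd8* itself went from 368 to 269 FPKM (−0.45). The genes of the activating enzyme were higher, *Nae1* from 137 to 259 FPKM (0.91) and *Uba3* from 28.0 to 70.1 (1.29). Of the conjugating enzymes, *Ube2m*, which serves most cullins, was at 24.0 and 26.1 FPKM (0.12), and *Ube2f*, which works with RNF7 on CUL5, went from 17.6 to 3.54 (−2.03), with its libraries in the same order as those of *Cops4* and *Cops5*. *Dcun1d1* and *Dcun1d5*, which encode ligases for NEDD8, went from 144 to 234 FPKM (0.69) and from 173 to 338 (0.96), and *Dcun1d4* from 4.20 to 10.2 (1.10). *Senp8*, a second protease for NEDD8, stayed between 23.1 and 26.2 FPKM in the 4 libraries.

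Of 10 genes of cullins and their RING partners, 1 lay below the 2-fold limit in TubA-20 relative to GV and 1 above it, again near the background of 11.7% and 7.61% of all genes. The higher one was *Cul1*, the scaffold of the SCF ligases, at 389 FPKM in GV, 581 in TubA-10, 682 in MII and 847 in TubA-20 (1.12 from GV to TubA-20). The lower one was *Rnf7*, the RING partner of CUL5, at 20.4, 29.7, 22.4 and 8.37 FPKM in the same order (−1.19), while *Rbx1*, the RING partner of most cullins, was at 260, 280, 284 and 409 (0.65). *Ube2f* and *Rnf7*, which act in 1 branch of the pathway, both lay below the 2-fold limit in TubA-20 against MII as well, at −1.22 and −1.32, and *Cul5* was higher than in GV by 0.94. Of 11 exchange factors, inhibitors and adaptors, 2 were more than 2-fold lower from GV to TubA-20, *Skp1a* (−1.25) and *Btrc* (−2.05), and 3 higher, *Ddb1* (1.05), *Fbxw7* (1.24) and *Skp2* (1.23), the last named after its values were seen. *Skp1a*, which encodes the adaptor of SCF ligases, was at 919 FPKM in GV, 1068 in TubA-10, 798 in MII and 386 in TubA-20. Of 3 genes around the ligase COP1, *Det1* was lower (−2.02), *Cop1* higher (1.14) and *Dda1* within 2-fold (0.96). Against MII, TubA-20 had 1 gene below the 2-fold limit in each of the first 3 of these lists (*Ube2f*, *Rnf7* and *Skp1a*), 0 in the COP1 list, and 0 above it in any of the 4. The shares for that comparison were 2.44% lower and 0.328% higher over all genes, and 6.37% and 0.545% over those with at least 5 FPKM.

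The lid of the proteasome and the initiation factor eIF3 are built from PCI and MPN subunits in the manner of the signalosome, and 8 of the lid subunits have a known counterpart in it. Setting each subunit gene except *Cops9* beside its counterpart gave 9 pairs, since *Psmd13* pairs with both *Cops7a* and *Cops7b*, and in 3 of the 9 both genes changed in the same direction from GV to TubA-20. *Psmd13* had at most 3.88 FPKM, below the 10 FPKM from which genes of a list are named, and was named after its values were seen. The 3 pairs were the catalytic subunits, *Cops5* (−1.75) with *Psmd14* (−1.38), and *Psmd13* (−1.17) with *Cops7a* (−1.58) and *Cops7b* (−0.36). Between comparisons the count varied from 2 of the 9 (TubA-10 against GV) to 5 (TubA-10 against MII). No share was computed for pairs of other genes. *Psmd7*, the counterpart of *Cops6*, was higher by 0.55, and *Psmd6* and *Psmd8*, the counterparts of *Gps1* and *Cops8*, were lower, with log2 changes of −2.26 and −1.64. Of the 8 lid genes, 4 were more than 2-fold lower and 1, *Psmd3* (1.02), was higher, with a median of −0.50. Of 8 genes for eIF3 subunits, 5 were more than 2-fold lower and 1 higher, with a median of −1.78, and the MPN subunits *Eif3f* (−2.52) and *Eif3h* (−2.83) were among the lower ones. The background for both lists is again 11.7% lower and 7.61% higher over all genes, and 26.4% and 19.9% over those with at least 5 FPKM. Whether these groups differ from the signalosome genes was not tested, as no test can be had with 1 library per condition.

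**Figure D4:**
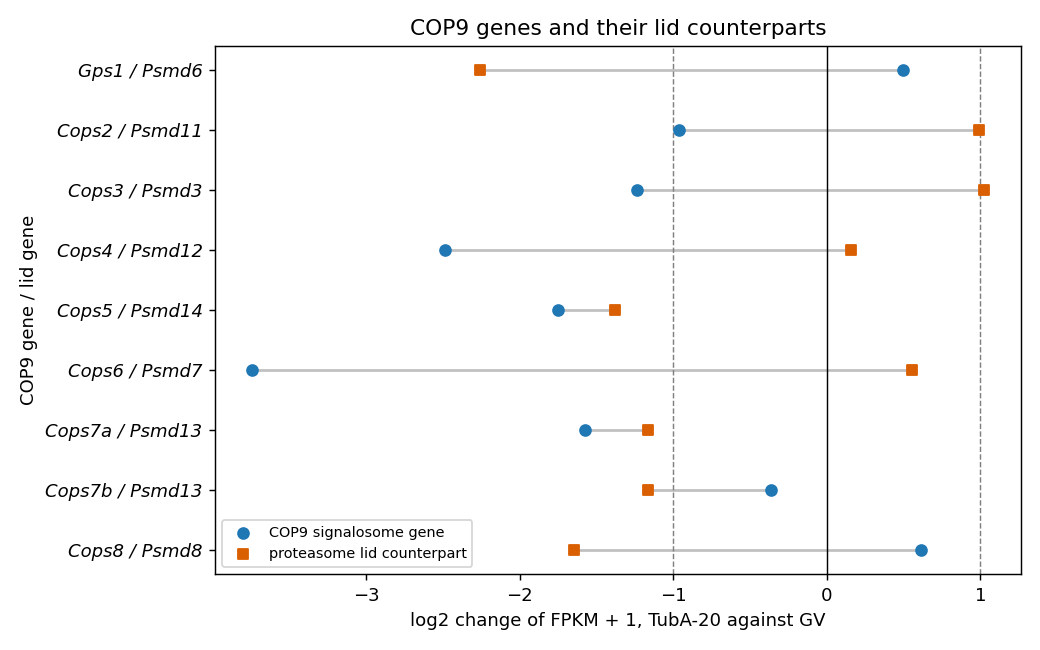
The log2 change of FPKM + 1 from GV to TubA-20 is plotted for each COP9 signalosome gene (circle) and for its proteasome lid counterpart (square), with dashed lines at 2-fold. Both symbols lie on one side of 0 in 3 of the 9 rows, and the widest gap is that of *Cops6* (−3.74) and *Psmd7* (0.55).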

How the data were processed

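The authors deposited 1 table of FPKM values for 21959 Ensembl entries in 4 libraries. Per the methods of the paper, paired reads of 100 bases were quantified with cufflinks for a strand-specific library on mm10. The submitters' processing notes name STAR 2.5.0, Cufflinks and Cuffdiff 2.2.1. The labels and the methods differ on the RNA extraction kit, and the paper writes of pooled oocytes in its methods and of single ones elsewhere. Symbols and coordinates were joined by identifier from GENCODE M21 (GRCm38, the same build as mm10), with 21794 entries matched, and entries of one symbol were summed.

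From the deposited FPKM, log2 ratios with a pseudocount of 1 were computed for 6 comparisons and counted past 2-fold, with no filter. The size of a group is 1, so no test was run. A median was read as moved when it changed by more than 0.25. A count was read as moved when it changed by more than 1.5-fold, or from or to 0. Relative depth was the mode of the ratio of FPKM between 0.001 and 0.15 in a pair of libraries, and absolute depth was not estimated. The members and lists were chosen with earlier results of these data known. All 10 members are named, and other genes from fixed lists were named from 10 FPKM. Copies were sought with megablast among annotated transcripts. The principal transcript was the one with the best APPRIS rank and support level. Alternatives were a pseudocount of 0.1 or 0.01, a minimum of 1 or 5 FPKM, 4 scalings (median change of 0, equal sums, upper quartiles, *Gapdh*) and the highest entry of a symbol. Protein sequences are not used here. The scripts were tested on simulated data. Python 3.11.15, numpy 2.4.6, pandas 2.3.3 and matplotlib 3.10.9 were used.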

Additional observations from a re-analysis of the deposited data

Results flagged for a closer look

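For 7 of the 10 genes the TubA doses lay on opposite sides of MII, under each of the 4 scalings too, and this difference was not tested. The log2 change of TubA-20 against TubA-10 was −0.35 for *Cops2*, −0.65 for *Cops3*, −1.38 for *Cops4*, −1.12 for *Cops5*, −1.64 for *Cops7a*, −0.66 for *Cops7b* and 0.73 for *Cops9*. *Cops7b* lay only 0.01 below MII in TubA-20. Of the genes with at least 5 FPKM, 64.4% had their doses on opposite sides of MII, so the count for the subunit genes is close to that of other genes. TubA-10 and TubA-20 are set against the same MII library.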

How the results depend on the processing

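No paired analysis was possible because each condition has 1 library, and no library can be left out of a comparison for the same reason. Of 182 recomputed counts and medians, 174 kept their direction and stayed within their limits. Part of these could not move. Each gene has a single entry, and all 10 reached 1 FPKM in every library. The highest entry and the minimum of 1 FPKM therefore repeat the main values. Counts could also change within their limit of 1.5-fold. The genes more than 2-fold lower went from 3 to 2 or 4 under the scalings for MII against GV, and from 5 to 6 for TubA-20 against GV. With equal *Gapdh*, the subunit genes below the 2-fold limit in TubA-10 relative to GV went from 2 to 1, their median log2 change from −0.26 to 0.0073, and those higher in TubA-20 from 0 to 1. Keeping genes with at least 5 FPKM, which drops *Cops7b*, moved the median of TubA-10 against GV to −0.58. TubA-20 was the highest library for 1 gene in place of 2 under each of the 4 scalings. Of 534 values of single genes, 8 changed sign, 4 passed 2-fold and 4 fell short of it. The rest include the values that could not move. The signs that changed were those of *Cops8* from GV to MII (−0.023) and *Cops7a* from GV to TubA-10 (−0.091) with the median change set to 0, *Cops6* from MII to TubA-10 (0.037) and *Gps1* from MII to TubA-20 (−0.0025) with equal *Gapdh*, and *Gps1* from TubA-10 to TubA-20 with the median change set to 0 (−0.024), equal sums (−0.045), equal upper quartiles (−0.049) and equal *Gapdh* (−0.15). Over all genes, the pseudocount set the counts of lower and higher genes, since a smaller one lets in genes near 0. With 0.01 they were 4015 and 2492 for MII against GV, 3344 and 1762 for TubA-10 against GV, 5222 and 3364 for TubA-20 against GV, 1393 and 1704 for TubA-10 against MII, 2952 and 1174 for TubA-20 against MII and 3820 and 1271 for TubA-20 against TubA-10, and the counts with 1 were 1832 and 669, 1230 and 163, 2569 and 1670, 28 and 113, 536 and 72, and 1213 and 145. Changes of the size of those that switched sign cannot be read without replicates. The cause of these moves was not tested, beyond the factor each scaling applies.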
